A study of Mus musculus with 4 samples.

Results

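Genes of the centrosome and the centriole were followed in dividing growth plate chondrocytes with and without Ift88. The members were every gene whose symbol is Cep followed by a number, with Cep290 left out, which gave 32 genes, and 22 genes named singly, among them Ninl, Nin, Plk4, Sass6, Pcnt, Pcm1 and Tubg1. They came to 54 of the 18193 genes measured and to 116 of the 45101 probe sets on the array. The rule reads gene names and no measured value, though it was set with earlier results of these data known.

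The centrosome organises the microtubules of an animal cell. It holds a pair of centrioles in a matrix that carries γ-tubulin, from which microtubules grow, and the older centriole bears appendages that anchor microtubules and fix it to the membrane when it becomes the basal body of a primary cilium. Centrioles duplicate in step with the cell cycle, so centrosome genes belong both to the dividing cell and to the cilium. In the growth plate, columns of proliferating chondrocytes carry primary cilia, and Ift88 encodes a subunit of the intraflagellar transport machinery that builds them.

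RNA was measured on Affymetrix arrays in 2 samples of Ift88-deleted mice, genotype Col2aCre;Ift88fl/fl, and 2 samples of Control mice, which the labels call wild-type. In the deleted mice Cre is driven by the type II collagen promoter, which is active in chondrocytes, and the sources used here do not say whether the Control mice carried floxed alleles or Cre. Both groups were on the C57BL/6 background and were taken at postnatal day 7, when a needle was used to dissect the proliferative zone out of tibia and femur sections 40 µm thick, and 50 ng of total RNA was amplified in 2 rounds from oligo-dT primers. The labels call the 2 samples of a group biological replicates, while sex and litter are not given in the sources used here.

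Values are log2 intensities from which each probe set's own median over the 4 arrays had been subtracted, so they give differences between arrays and no level. A gene's value is the mean over the probe sets that name it alone, and every difference below is Ift88-deleted minus Control on the log2 scale. The targeted gene, Ift88, stood at 0.22 and -0.07 in the Ift88-deleted samples, against 0.07 and -0.08 in the Control samples, a difference of 0.08 (SE 0.15), and which part of the transcript its probes read is not given in the sources used here. The 2 genes of all 18193 that passed the threshold, an adjusted p of 0.05, were sex-linked: Xist was at -3.79 and -3.61 in the Ift88-deleted samples, against 3.58 and 3.74 in the Control samples, and the Y-linked Eif2s3y was at 1.80 and 1.55, against -1.55 and -1.78. Sex and genotype cannot be told apart in these 4 arrays. A brightest class, for a lowest value of 8 or more before the subtraction, was inferred from the numerical steps of the values. A dimmer probe set can fall in it by coincidence. All 15 chondrocyte markers measured had a probe set in this class, against 37.8% of all genes, and 0 of 10 skeletal muscle markers did. Osteoblast markers did so in 5 of 7 genes, hypertrophic chondrocyte markers in 4 of 7 and blood and marrow markers in 3 of 9. Of the 15 chondrocyte markers, 0 passed the test, and the first 3 of the list, Col2a1, Acan and Sox9, differed by 0.25, 0.00 and 0.04. The groups did not overlap for 4 of the 15 (26.7%) on the higher side and 3 (20%) on the lower side, against 14.7% and 18.6% of all genes. The differences ran from -0.54 for Comp, a cartilage matrix protein (0.0236 before adjustment, adjusted p 0.807 in limma), to 2.13 for Chad, or chondroadherin, another matrix protein (0.000178 before adjustment, adjusted p 0.161 in limma), both chosen after their values were seen. Chad was at 1.54 and 0.82 in the Ift88-deleted samples, against -1.06 and -0.82 in the Control samples.

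Ninl showed the largest difference among the 54 genes. Ninl encodes the ninein-like protein, which in human cells binds γ-tubulin at the centrosome and leaves it when mitosis begins, and Nin encodes ninein, the protein of the subdistal appendages that anchors microtubules to the older centriole. Ninl was higher in Ift88-deleted samples and Nin lower, and neither passed the test over all genes. Their upstream sequences, 250 bases before an annotated start, are shown because the paralogs lay on opposite sides of 0, and Sass6 is shown as a duplication gene with a cell-cycle motif. They were taken from RefSeq on GRCm38.p6 and run 5′ to 3′ on the gene's strand. Capitals mark the cell cycle homology region motif TTTGAA or its reverse complement TTCAAA, a promoter element known from genes of the late cell cycle.
Ninl, chr2:151009399-151009648, minus strand: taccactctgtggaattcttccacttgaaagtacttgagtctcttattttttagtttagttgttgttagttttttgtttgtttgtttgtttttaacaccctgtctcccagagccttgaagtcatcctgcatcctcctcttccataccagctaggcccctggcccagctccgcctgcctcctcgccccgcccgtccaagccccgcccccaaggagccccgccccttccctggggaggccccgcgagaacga
Nin, chr12:70112036-70112285, minus strand: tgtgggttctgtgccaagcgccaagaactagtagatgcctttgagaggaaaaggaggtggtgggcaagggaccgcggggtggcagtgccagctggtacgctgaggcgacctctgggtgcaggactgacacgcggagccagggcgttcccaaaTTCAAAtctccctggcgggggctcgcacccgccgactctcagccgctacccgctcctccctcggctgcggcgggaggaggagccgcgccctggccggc
Sass6, chr3:116594708-116594957, plus strand: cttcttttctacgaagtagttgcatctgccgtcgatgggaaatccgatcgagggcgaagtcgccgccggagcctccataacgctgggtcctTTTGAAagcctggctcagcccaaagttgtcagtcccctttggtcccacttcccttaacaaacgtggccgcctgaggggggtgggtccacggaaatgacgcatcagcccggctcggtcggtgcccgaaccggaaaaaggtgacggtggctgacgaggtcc

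The Ninl stretch held none of the motifs searched and had 54.4% G or C, against 67.2% in the Nin stretch and 59.6% in that of Sass6. Nin has 3 annotated windows, and the printed stretch was chosen because it alone of the 3 holds the motif in its 250 upstream bases. The other 2 stretches had 77.2% and 57.2% G or C. Of the 54 genes, 44 had a promoter in the RefSeq table, each as 300 bases from 250 before to 50 after the start. On either strand, TTTGAA stood in 13 of these 44, or 29.5%, against 20.2% of 27025 genes with a promoter. These 13 were Cdk5rap2, Cep112, Cep162, Cep164, Cep170, Cep295, Cep55, Cep72, Cep89, Nin, Odf2, Poc5 and Sass6. The E2F motif TTTCCCGC stood in 2 members, Cep128 and Cntln (4.55%, against 1.24%), and its variant TTTGGCGC in 0 of 44, against 0.585%. The GLI motif TGGGTGGTC, named for the transcription factors of Hedgehog signalling, stood in 1, Cetn3 (2.27%, against 0.289%). A match describes these letters in this window and is not a binding site.

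Ninl lies on GRCm38.p6 at chr2:150934519-151009411 and was read by 1 probe set, whose lowest value before the subtraction was placed between 4 and 8. It was at 0.52 and 0.91 in the Ift88-deleted samples, against -0.52 and -0.84 in the Control samples. Both deleted samples lay above both Control samples, with means of 0.72 ± 0.28 and -0.68 ± 0.23 (SD, n = 2 each). The difference was 1.40 (SE 0.19, 95% interval 0.93 to 1.87), or 2.64-fold, and it did not pass the test, with an adjusted p of 0.213 by limma over all genes and 0.000373 before adjustment. By that p Ninl was number 31 of the 18193 genes, and 12 genes had a larger positive difference. Among all genes, 0.165% were at least 2-fold higher in the Ift88-deleted samples with groups that do not overlap, and of the 54 members 1, Ninl, was. When single arrays were left out, the difference ran from 1.21 to 1.60. Here and below, less RNA per cell cannot be told apart from fewer of the cells that make it.

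Nin lies at chr12:70011435-70113811. It was at -0.32 and -0.19 in the Ift88-deleted samples, against 0.06 and 0.25 in the Control samples, without overlap. The difference was -0.41 (SE 0.14, 95% interval -0.75 to -0.06), 1.33-fold lower, with an adjusted p of 0.814 in limma and 0.0273 before adjustment. Its 3 probe sets did not give the same picture. The bright probe set 1419078_at was at -0.34 and -0.47 in Ift88-deleted samples, against 0.48 and 0.34 in Control samples, a difference of -0.81 (SE 0.15, adjusted p 0.427 in limma over 45037 probe sets). Another bright probe set, 1428600_at, was at -0.52 and -0.20, against 0.20 and 0.31, a difference of -0.61 (SE 0.17, adjusted p 0.685 in limma). The dimmer 1444155_at was at -0.10 and 0.10, against -0.50 and 0.11, a difference of 0.20 (SE 0.24), with groups that overlap.

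**Figure D1:**
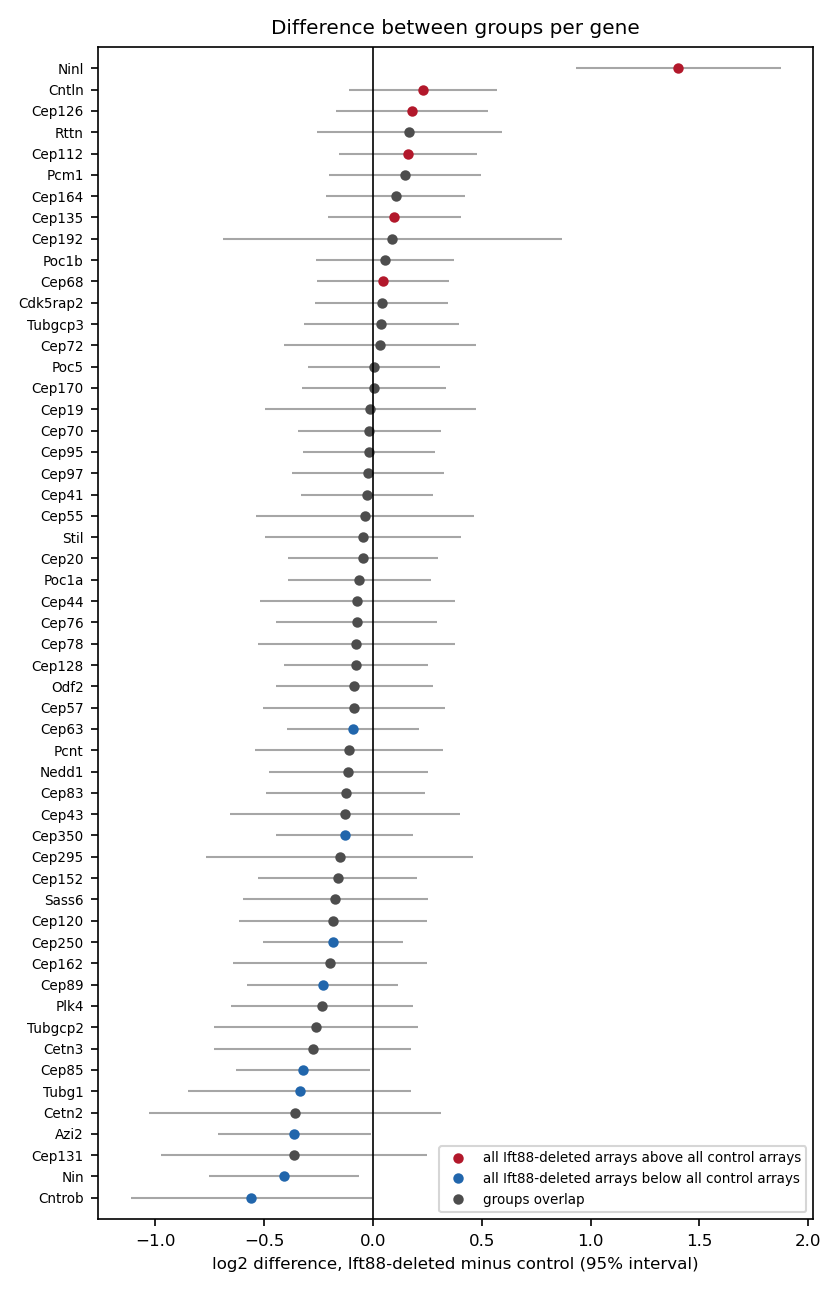
Difference between Ift88-deleted and Control samples on the log2 scale for each of the 54 genes, in order of size, with 95% intervals from limma. Red points mark the 6 genes with both deleted samples above both Control samples and blue points the 9 with both below, and Ninl stands apart at 1.40.

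Of the 54 genes, 0 passed the adjusted threshold, against 0.011% of all genes. At an unadjusted p under 0.05 there were 5, or 9.26%, made up of Ninl on the higher side and Cntrob, Nin, Azi2 and Cep85 on the lower side, against 5.96% of all genes, 2.29% higher and 3.68% lower. The groups did not overlap for 15 members (27.8%), 6 higher and 9 lower in Ift88-deleted samples, against 33.3% of all genes, 14.7% higher and 18.6% lower. The members' shares of genes without overlap were thus no larger than those of the array as a whole. In all, 38 members (70.4%) lay below 0, against 51.8% of all genes, and their median difference was -0.075, against -0.007. The quartiles of the members' differences were -0.180 and 0.025.

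That lower median went with a single array. Control 1 held the highest of the 4 values for 33 of the 54 genes (61.1%), against 32.4% of all genes, while Ift88-deleted 1 did so for 10, Ift88-deleted 2 for 6 and Control 2 for 5, against 16.4%, 23.7% and 27.5% of all genes. The members' median value was 0.015 and -0.045 in the Ift88-deleted samples, against 0.148 and -0.036 in the Control samples, so that Control 2 stood with the deleted samples. Without Control 1 the members' median difference was 0.028, and without Control 2 it was -0.175. Across the members, the SD of the Control 1 minus Control 2 difference was 0.275 and that of the Ift88-deleted pair 0.198, beside 0.261 for the difference between the groups. The last is taken between means of 2 arrays and includes Ninl at 1.40, so it is not on equal terms with the values for single arrays.

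**Figure D2:**
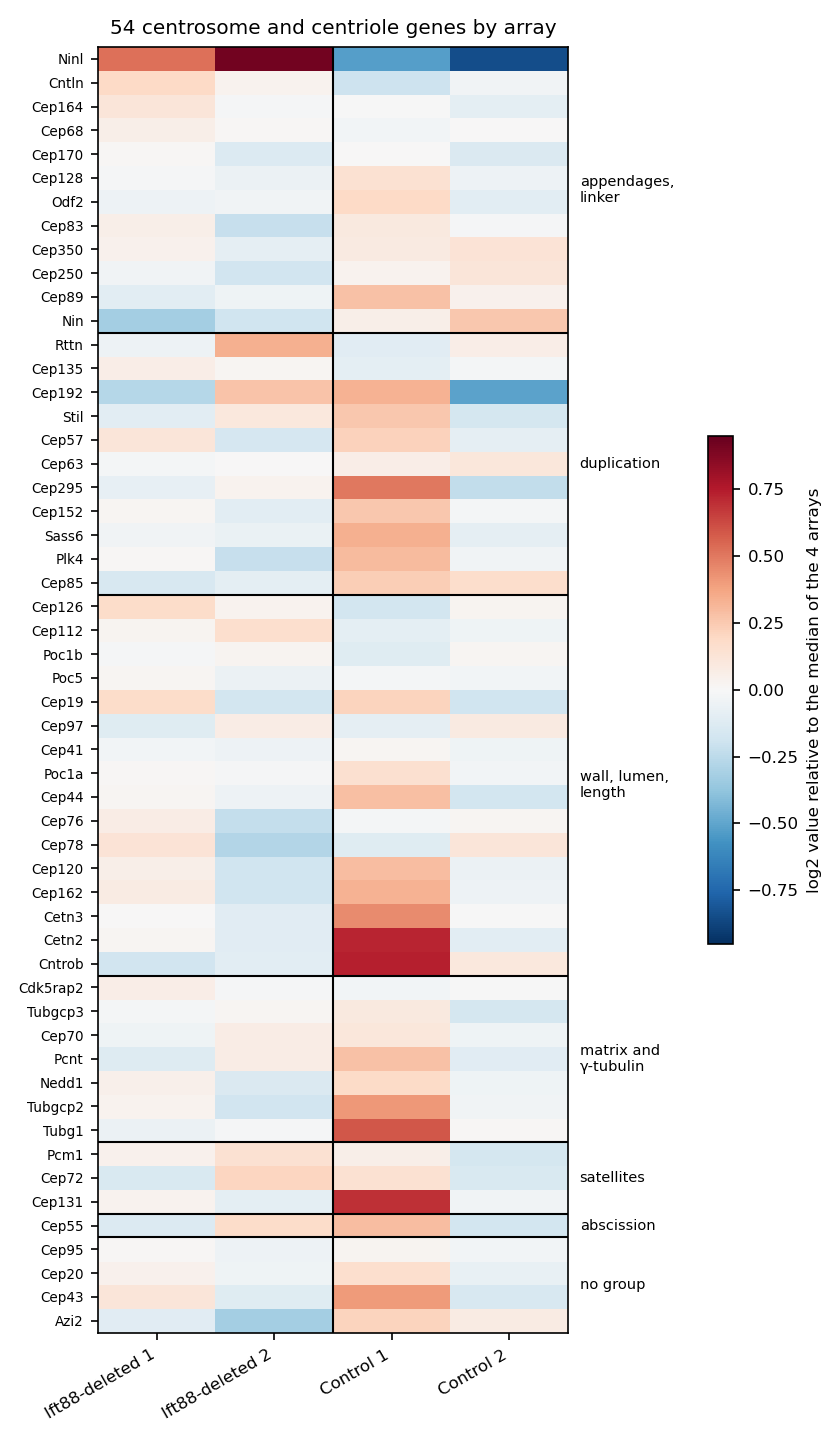
Values of the 54 genes in each of the 4 arrays, Ift88-deleted samples left of Control samples, on the log2 scale with each probe set's median at 0. Control 1 holds the highest value for 33 genes, and Ninl is high in both deleted samples.

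The genes of centriole duplication numbered 11, of which 8 lay below 0, with a median of -0.091. Cep85, which in human cells works with Stil in starting a new centriole, was at -0.15 and -0.09 in Ift88-deleted samples, against 0.23 and 0.17 in Control samples, without overlap. The difference was -0.32 (SE 0.12, 1.25-fold lower, adjusted p 0.830 in limma). Of its 2 probe sets, 1451212_at gave -0.47 (SE 0.16) and 1432391_at -0.17. Plk4, the kinase that starts centriole duplication, was at 0.01 and -0.22, against 0.30 and -0.03, a difference of -0.23 (SE 0.17, adjusted p 0.948 in limma). A single probe set of Plk4, 1419838_s_at, set the groups apart, with -0.13 and -0.52 in Ift88-deleted samples, against 0.54 and 0.13 in Control samples, and its other probe sets gave -0.07 and 0.03. Sass6, the protein of the cartwheel that gives the centriole its symmetry, was at -0.03 and -0.06, against 0.33 and -0.08, so that Control 1 alone was high. Its difference was -0.17 (SE 0.17), and it was 0.035 with Control 1 left out. Control 1 held the highest value for 8 of the 11 genes, and the group's median in that array was 0.253, beside -0.034 in Control 2. The rest ranged from -0.16 for Cep152, a scaffold that recruits Plk4, to 0.17 for Rttn, and Cep135 (0.10, higher) and Cep63 (-0.09, lower) were the others without overlap.

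Among the 16 genes of the centriole wall, lumen and length, 12 lay below 0, with a median of -0.067. Cntrob, or centrobin, a protein of the younger centriole, lies at chr11:69297909-69323898 and was at -0.19 and -0.10 in Ift88-deleted samples, against 0.74 and 0.10 in Control samples. The groups did not overlap, and the difference was -0.56 (SE 0.22, 95% interval -1.11 to -0.01, 1.47-fold lower, adjusted p 0.830 in limma), the largest on the lower side. It depended on Control 1, with -0.24 when that array was left out and -0.88 when Control 2 was. The centrins are small calcium-binding proteins of the centriole lumen. Cetn2, which is X-linked, was at 0.02 and -0.11, against 0.73 and -0.10, a difference of -0.36 (SE 0.27), which was 0.05 without Control 1. Cetn3 was at 0.00 and -0.11, against 0.45 and 0.00, a difference of -0.28 (SE 0.18) that was -0.05 without Control 1. In all 3 of these genes Control 1 was the high array. On the higher side, Cep126 differed by 0.18 and Cep112 by 0.16, both without overlap. For Cep112 this came from probe set 1427205_x_at, at 0.12 and 0.45 in Ift88-deleted samples, against -0.12 and -0.17 in Control samples, a difference of 0.43 (SE 0.17, adjusted p 0.806 in limma), while its other probe sets gave 0.08 and -0.02. The other genes of this role ranged from -0.20 for Cep162 to 0.06 for Poc1b, with overlapping groups.

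The appendages and the linker that ties the centrioles together were covered by 12 genes, Ninl and Nin among them, with a median of -0.081. Control 1 held the highest value for 4 of these 12. Besides Ninl and Nin, Cep89, a distal appendage protein, was at -0.10 and -0.04 in Ift88-deleted samples, against 0.28 and 0.04 in Control samples, a difference of -0.23 (SE 0.14, adjusted p 0.925 in limma). Its probe set 1421948_a_at gave -0.61, with 0.88 in Control 1, whereas the bright 1421949_a_at gave 0.00. Cntln, a linker protein, was on the higher side at 0.19 and 0.04, against -0.20 and -0.04, a difference of 0.23 (SE 0.14). The groups also did not overlap for Cep250, a linker protein (-0.18), Cep350 (-0.13) and Cep68, a linker protein (0.05). Cep164, the distal appendage protein needed to dock the basal body, differed by 0.10 (SE 0.13), and Odf2, which the appendages need to form, by -0.08 (SE 0.15), both with overlap. Cep83 (-0.12), Cep128 (-0.08) and Cep170 (0.00) overlapped too. In this role 3 of the 12 genes (25%), Ninl among them, were higher and 4 (33.3%) lower without overlap, against 14.7% and 18.6% of all genes. Whether this role differs from all genes was not tested.

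Of the 7 genes of the pericentriolar matrix and γ-tubulin, 5 lay below 0, with a median of -0.111. Tubg1, γ-tubulin itself, was at -0.06 and -0.01 in Ift88-deleted samples, against 0.59 and 0.01 in Control samples, a difference of -0.34 (SE 0.21, adjusted p 0.925 in limma). The groups did not overlap, but Ift88-deleted 2 and Control 2 lay close together, and without Control 1 the difference was -0.05. Tubgcp2, a subunit of the γ-tubulin ring complex, was at 0.04 and -0.18, against 0.41 and -0.04, a difference of -0.26 (SE 0.19), which was -0.04 without Control 1. Nedd1, which brings that complex to the centrosome, was at 0.05 and -0.14, against 0.18 and -0.04, a difference of -0.11 (SE 0.15). The large scaffold Pcnt differed by -0.11 and its partner Cdk5rap2 by 0.04, both with overlap, as did Tubgcp3 (0.04) and Cep70 (-0.02). Control 1 held the highest value for 6 of the 7 genes.

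The satellites, granules around the centrosome that carry proteins to it, had 3 genes, all with overlapping groups. Pcm1, their scaffold, was at 0.04 and 0.14 in Ift88-deleted samples, against 0.06 and -0.17 in Control samples, a difference of 0.15 (SE 0.14), and its 5 probe sets ran from -0.08 to 0.56. Cep131 was at 0.03 and -0.10, against 0.70 and -0.03, a difference of -0.36 (SE 0.25), which was 0.00 without Control 1. Cep72 was at -0.14 and 0.21, against 0.14 and -0.14, a difference of 0.03 (SE 0.18). Cep55, which acts in the final cut between daughter cells and not in the centriole, was at -0.13 and 0.17, against 0.29 and -0.17, a difference of -0.04 (SE 0.20). Azi2, an adaptor of the kinase Tbk1 that is not known as a centrosome protein, was at -0.11 and -0.32, against 0.21 and 0.08, a difference of -0.36 (SE 0.14, 1.28-fold lower, adjusted p 0.830 in limma) without overlap. Cep43, Cep20 and Cep95, to which no role was given here, differed by -0.13, -0.04 and -0.02.

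Probe sets of 1 gene often disagreed. Of the 35 members with at least 2 probe sets, 24 (68.6%) had probe sets on both sides of 0, against 58.5% of 9010 such genes on the array, and the median range within a gene was 0.303, against 0.274. Poc5, a centrin-binding protein of the lumen chosen here after its values were seen, had 1419265_at at -0.06 and -0.40 in Ift88-deleted samples, against 0.06 and 0.10 in Control samples. Its other probe set, 1419264_at, was at 0.10 and 0.30, against -0.10 and -0.15. In neither probe set did the groups overlap, and the differences of -0.31 and 0.32 cancelled in the gene's difference of 0.005. Taken singly, 0 of the 116 probe sets passed, against 0.0444% of 45037, and 6 (5.17%) had an unadjusted p under 0.05, against 6.17%. Their groups did not overlap for 33 (28.4%), against 33.6%. Among the 31 member probe sets of the brightest class, 0 were higher and 6 (19.4%) lower without overlap, with a median of -0.110. Of all probe sets tested, whatever their class, 16.2% were higher and 17.4% lower without overlap. The shares over all probe sets of the brightest class were not computed.

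**Figure D3:**
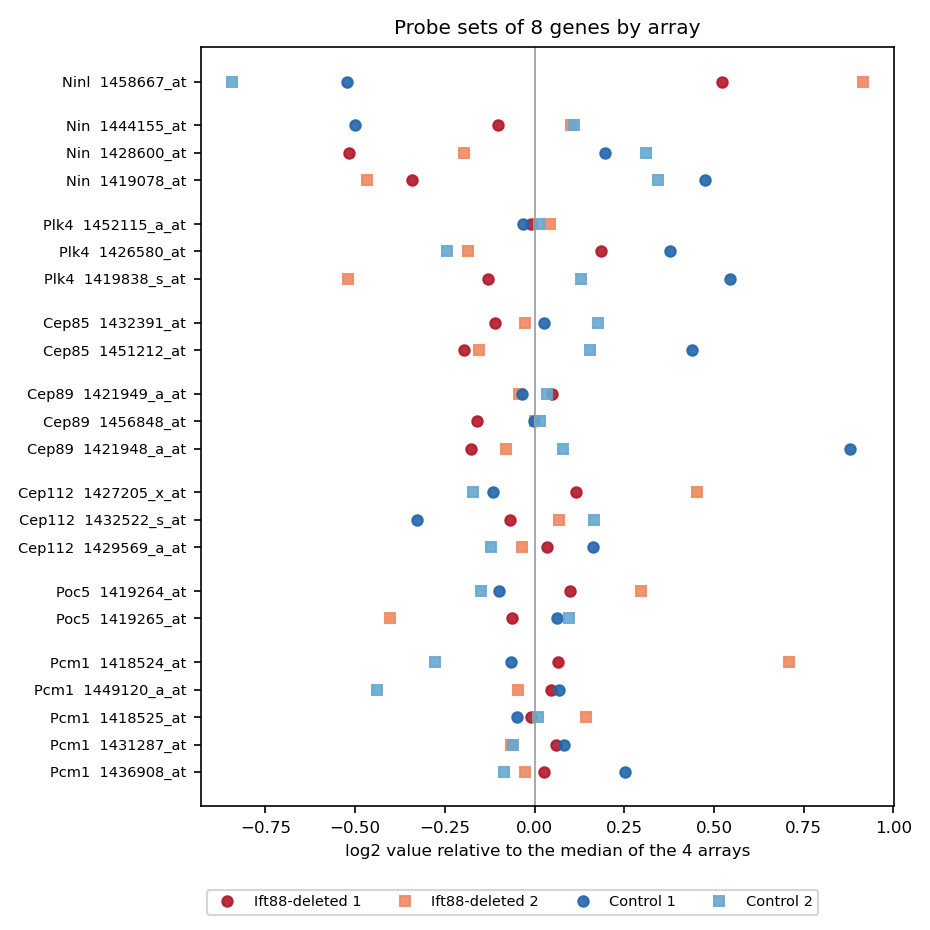
Log2 value of each probe set of 8 genes in the 4 arrays, with red and orange symbols for Ift88-deleted samples and dark and light blue ones for Control samples. The bright Nin probe sets keep the groups apart while 1444155_at does not, and the Poc5 probe sets lie in opposite directions.

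A further 48 centrosome genes outside the member rule, of 50 listed, were measured. Their median difference was -0.019, with 21 above and 27 below 0, and 0 passed the threshold. At an unadjusted p under 0.05 in limma there was 1 (2.08%, against 5.96% of all genes), Tubgcp5, another subunit of the γ-tubulin ring complex. Tubgcp5 was at 0.26 and 0.26 in Ift88-deleted samples, against -0.25 and -0.33 in Control samples, a difference of 0.55 (SE 0.12, adjusted p 0.508 in limma). Control 1 held the highest value for 32 of these 48 genes (66.7%).

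The same array stood out in genes of the dividing cell. Of 32 G2/M genes, 29 lay below 0, with a median difference of -0.274 and 0 past the threshold, and Control 1 was highest for 29. The groups did not overlap for 0 of the 32 on the higher side and 13 (40.6%) on the lower side. Among all genes these shares were 14.7% and 18.6%. At an unadjusted p under 0.05 in limma, 0 G2/M genes were higher and 4 (12.5%) lower, against 2.29% and 3.68% of all genes. Their median value was -0.046 and -0.063 in the Ift88-deleted samples, against 0.434 and -0.045 in the Control samples, and the median difference was 0.005 without Control 1 and -0.539 without Control 2. Mki67, the proliferation antigen Ki-67, was at -0.16 and -0.19, against 0.63 and 0.16. The 26 S-phase genes had a median difference of -0.169, with medians of -0.020 and -0.030, against 0.302 and -0.054. Without overlap, 1 S-phase gene (3.85%) was higher and 8 (30.8%) were lower. The part of these genes in the members' values was not tested. The 19 genes of multiciliated cells had a median of -0.001, with medians of -0.020 and 0.003 in Ift88-deleted samples, against -0.014 and 0.014 in Control samples.

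Markers of neighbouring cells did not set Control 1 apart in this way. The 9 blood and marrow markers measured, of 12 listed, had a median of -0.263, with -0.058 and 0.072 in Ift88-deleted samples, against -0.285 and 0.563 in Control samples, so that Control 2 was the high array. The 10 skeletal muscle markers had a median of -0.256, with -0.042 and -0.036, against -0.006 and 0.308. Of these 10, 9 lay below 0 and 0 passed the threshold. Without overlap, 1 (10%) was higher and 4 (40%) were lower, against 14.7% and 18.6% of all genes. Tnnc2 differed by -1.08 and Mylpf by -1.05, without overlap (adjusted p 0.161 and 0.312 in limma), both chosen after their values were seen. Tnnc2 was at -0.63 and -0.50 in Ift88-deleted samples, against 0.52 and 0.50 in Control samples. The 7 osteoblast markers stood at 0.314 and -0.442, against -0.104 and 0.277, and the 7 hypertrophic markers at 0.614 and -0.347, against -0.167 and 0.072. Of the 7 osteoblast markers, 4 lay above 0, and 0 were higher and 2 (28.6%) lower without overlap. These 2 were Dmp1 at -0.72 and Sp7 at -0.54 (adjusted p 0.321 and 0.820 in limma). The 7 endothelial markers had a median of -0.032. The 15 chondrocyte markers were at 0.105 and -0.046, against -0.013 and -0.008, a median of 0.035. Their part in the members' values was not tested. The 3′ minus 5′ probe set value of Gapdh, a measure of RNA integrity, was -0.066 and -0.405 in Ift88-deleted samples, against -0.183 and 0.066 in Control samples. For Actb it was -0.10 and -0.14 in Ift88-deleted samples, against 0.10 and -0.05 in Control samples, so that both deleted samples lay below both Control samples and Control 1 was the highest array. The part of RNA integrity in the members' values was not tested.

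**Figure D4:**
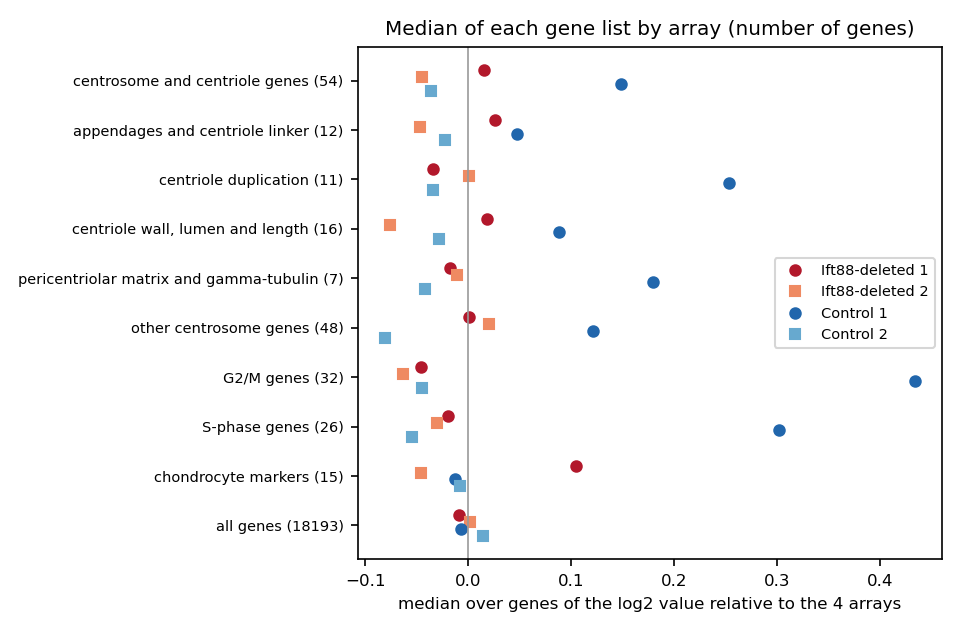
Median value of each gene list in the 4 arrays, Ift88-deleted samples before Control samples, log2 scale. The G2/M list reaches 0.434 and the members 0.148 in Control 1, while the other 3 arrays lie between -0.063 and 0.015 for these lists.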

How the data were processed

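The deposited values are log2 intensities to which the authors applied RMA, per the submitters' processing notes, which give no version; the table shows that each probe set's median over the 4 arrays was then subtracted. The log base was inferred from the numerical steps of the values, which also gave the brightness classes. These classes are inexact, because the values of a dimmer probe set can fall on coarser steps by coincidence. Of the brightest class, 16.2% also lay on the next coarser steps. The number of dimmer probe sets in that class was not computed. All sample columns were used, and 64 control probe sets were left out. Of 45037 probe sets, 34945 name 1 gene symbol, 932 several and 9160 none, and 34741 were matched to RefSeq. A gene was the mean over its own probe sets, with no filter on low values. Groups were compared with limma 3.58.1 under R 4.3.3 (eBayes, two-sided), with Benjamini-Hochberg adjustment over 18193 genes or 45037 probe sets and a threshold of 0.05. With 3 splits of 4 arrays, an exact permutation test cannot give a p under 0.333. P-values measure the spread between these arrays, whose number limits the precision. The fit was tested on simulated data. Motifs were searched on both strands of RefSeq promoters on GRCm38.p6. Named were Ninl, Nin, members with an unadjusted p under 0.05 and no overlap, and the 3 largest differences in each role. Members, lists and roles were chosen with earlier results of these data known.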

Additional observations from a re-analysis of the deposited data

How the results depend on the processing

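The number of member genes past the threshold was 0 under every other scaling, probe set summary, moderation, brightness limit and looser threshold tried, and between 0 and 1 when single arrays were left out, the 1 being Ninl without Ift88-deleted replicate 1. For Ninl the adjusted p ran from 0.0123 to 0.988 over all settings. The members' median difference of -0.075 ran from -0.175 to 0.028 when single arrays were left out. The median over probe sets, -0.040, was -0.110 in the brightest class alone and ran from -0.121 to 0.023 when single arrays were left out. In the brightest class alone Cep89 was at 0.002 and Sass6 at 0.093. Leaving out single arrays, Cep131 ran from -0.73 to 0.001, Cep55 from -0.27 to 0.19 and Cep72 from -0.14 to 0.21. Cetn2 ran from -0.77 to 0.053 and Sass6 from -0.38 to 0.035. The other 19 of 24 named genes and probe sets kept their sign, which those with groups that do not overlap must do. Ninl counts among these 24 both as a gene and as its 1 probe set. Of 237 values of the 24 under other settings, 235 kept direction and side of the threshold. The lower members at an unadjusted p under 0.05 numbered 4 of 54. They numbered 1 without moderation, and 2 with arrays centred, with the dimmest class left out or with the block. They also moved in number, up or down, when single arrays were left out. With the brightest class alone they were 2 of the 25 members it holds, and with _at probe sets alone 2 of 49. Ninl is not among those 25. Groups without overlap, 6 higher and 9 lower of 54, were 0 and 5 of 25 in the brightest class alone. For the brightest class alone and for _at probe sets alone, the shares over all genes were not computed. When a single array is left out, the lone array left in its group is assumed to vary like the others. The replicate numbers are not known to mark shared litters or days, and over genes the replicate 1 minus 2 differences of the groups correlated at 0.14. With a replicate block 0 member genes passed, the same as without it, and the adjusted p of Ninl was 0.464.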
